A study of Mus musculus with 15 samples.

Results

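Elovl1, Elovl2, Elovl3, Elovl5 and Elovl6 encode fatty acid elongases, and their transcripts were examined here in mouse liver across 3 Txnip genotypes. They were chosen by name, and the estimated counts of all their annotated transcripts were summed per gene symbol, which gave 5 genes of 35492 gene symbols. All 5 passed the filter on low counts and were tested. Bulk RNA had been sequenced from livers of mice kept for 8 weeks on a high-fat diet, in 5 Txnip knockout (KO) libraries, 5 libraries carrying the C247S form of TXNIP (C247S KI) and 5 wild-type (WT) libraries. The diet was common to all 15 libraries, so no value here describes its effect. TXNIP is the thioredoxin-interacting protein, and the cysteine changed in C247S KI is the one through which it binds thioredoxin. The sources used here give no strain, sex or age and do not name the cells in which Txnip was deleted. They also do not state that the libraries are from separate animals. The p-values therefore set each difference against the spread among these libraries only, and that spread may be technical.

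Elongases sit in the membrane of the endoplasmic reticulum and carry out the condensation step that adds carbons from malonyl-CoA to a fatty acyl-CoA, after which a reductase, a dehydratase and a further reductase complete the cycle. ELOVL6 takes palmitate on to stearate and so follows directly on fatty acid synthase. ELOVL5 and ELOVL2 extend polyunsaturated fatty acids in alternation with the desaturases FADS1 and FADS2, on the way to arachidonate and docosahexaenoate, with ELOVL2 acting on the longer chains. ELOVL1 and ELOVL3 make saturated and monounsaturated very-long-chain fatty acids, which in the case of ELOVL1 go largely into sphingolipids.

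The libraries held 18047577 to 23379940 estimated counts, so counting error was small beside the spread between libraries for genes at the level of these 5. Txnip was at 70.9 to 124 CPM (counts scaled to a common library size with TMM factors) in KO, 99.96 to 280 CPM in C247S KI and 180 to 320 CPM in WT libraries, and its log2 change was -1.17 for KO against WT (SE 0.24, edgeR adjusted p = 0.00886). Every KO library kept Txnip reads, and transcript estimates do not show which exons they came from. Hepatocyte markers such as Alb and Ttr summed to 51692 to 71491 CPM in KO, 70518 to 116762 CPM in C247S KI and 83746 to 100613 CPM in WT libraries, so the liver label held. Alb makes up most of that sum and was the 1 of 8 markers called, lower in KO against WT (-0.80, edgeR adjusted p = 0.0292) and against C247S KI (-0.80, edgeR adjusted p = 0.0217), while the median log2 change of the 8 was 0.05 and -0.06. Of all genes, 6.76% and 10.3% were called in these comparisons. In bulk RNA, fewer cells of a type and less RNA per cell cannot be told apart. C247S KI 3, C247S KI 5 and WT 1 stood apart in an earlier look at these data, and values without them are given where they change a result. The numbers that open the sample titles run in a separate range for the KO libraries, so whatever those numbers mark cannot be told apart from the KO genotype.

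The stretches upstream of Elovl5 and Elovl6 are shown because these were the elongases with the largest differences between genotypes. They are from RefSeq on GRCm38.p6, 5′ to 3′ on the plus strand, and cover 219 bases that end 32 bases before the RefSeq start, which keeps them outside every GENCODE transcript of the gene. Capitals mark motif matches. The Elovl5 stretch is chr9:77917115-77917333 and the Elovl6 stretch is chr3:129532136-129532354.
Elovl5: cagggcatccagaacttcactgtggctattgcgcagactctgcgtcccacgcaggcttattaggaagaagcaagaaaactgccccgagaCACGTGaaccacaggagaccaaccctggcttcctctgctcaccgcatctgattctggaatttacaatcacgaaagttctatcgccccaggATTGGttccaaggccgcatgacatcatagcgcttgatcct
Elovl6: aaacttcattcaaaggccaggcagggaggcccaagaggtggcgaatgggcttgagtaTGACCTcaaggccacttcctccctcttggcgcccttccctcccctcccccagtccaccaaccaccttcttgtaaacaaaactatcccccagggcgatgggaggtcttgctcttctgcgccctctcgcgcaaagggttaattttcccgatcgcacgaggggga
Elovl5 held an E-box (CACGTG), 161 bases before the start, and a CCAAT box read on the other strand (ATTGG), 71 bases before it. Elovl6 held a nuclear receptor half-site (AGGTCA) read on the other strand (TGACCT), 193 bases before its start. Of 32851 RefSeq windows of the same length, 4.97% held the E-box, 30.9% the CCAAT box and 12.5% the half-site on either strand. A core of the sterol regulatory element (TCACNCCAC), found in 0.907% of windows, a D-box (TTANGTAA), found in 1.89%, and a GC box (GGGCGG), found in 28.3%, had no match in either stretch. The matching windows of Elovl1 and Elovl2, with 69.4% and 87.7% G and C against 52.5% for Elovl5 and 57.99% for Elovl6, held 3 and 4 GC boxes and none of the other motifs. The motifs do not overlap each other in these stretches, and a match is a description of letters only. Elovl3 was not among the promoter sequences used here.

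Scaled by transcript length, the elongases differed in level, and their order was not the same in the 3 genotypes. In TPM (counts over annotated transcript length, scaled to a common total), Elovl2 averaged 145 ± 13.4 in KO, 233 ± 97.9 in C247S KI and 213 ± 38.8 in WT libraries (SD, n = 5 each). Elovl5 averaged 77.4 ± 7.52 TPM in KO, 375 ± 246.6 in C247S KI and 350.4 ± 135 in WT libraries. Elovl3 lay at 96.6 ± 16.7 TPM in KO, 80.1 ± 30.1 in C247S KI and 83.7 ± 11.7 in WT, and Elovl1 at 27.7 ± 4.03, 41.1 ± 6.33 and 34.6 ± 5.11 TPM in the same groups. Elovl6 was the lowest in 14 of the 15 libraries, at 9.998 ± 1.505 TPM in KO, 26.99 ± 12.3 in C247S KI and 14.7 ± 2.29 in WT.

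In 4 of 5 KO libraries the order of TPM was Elovl2, Elovl3, Elovl5, Elovl1 and Elovl6. In 4 of 5 WT libraries it was Elovl5, Elovl2, Elovl3, Elovl1 and Elovl6. The ranges of some neighbours overlapped, those of Elovl3 and Elovl5 in KO libraries (71.7 to 117 and 70.7 to 86.1 TPM) and of Elovl5 and Elovl2 in WT libraries (151 to 479.7 and 161 to 269 TPM). Compared within a library, Elovl3 exceeded Elovl5 in 4 of 5 KO libraries, and Elovl5 exceeded Elovl2 in 4 of 5 WT libraries. In WT libraries Elovl2 stood clear of Elovl3 (66.9 to 98.2 TPM), Elovl3 of Elovl1 (26.96 to 40.0 TPM) and Elovl1 of Elovl6 (11.3 to 17.3 TPM). As a share of the summed TPM of the 5 genes, Elovl5 made up 19.0% to 25.5% in KO, 29.6% to 59.9% in C247S KI and 31.8% to 57.6% in WT libraries, so the highest KO share lay below the lowest of the other 10 libraries. The share of Elovl3 was 21.5% to 30.97% in KO, 4.59% to 18.5% in C247S KI and 9.93% to 16.1% in WT libraries. These shares are a description and were not tested.

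**Figure D1:**
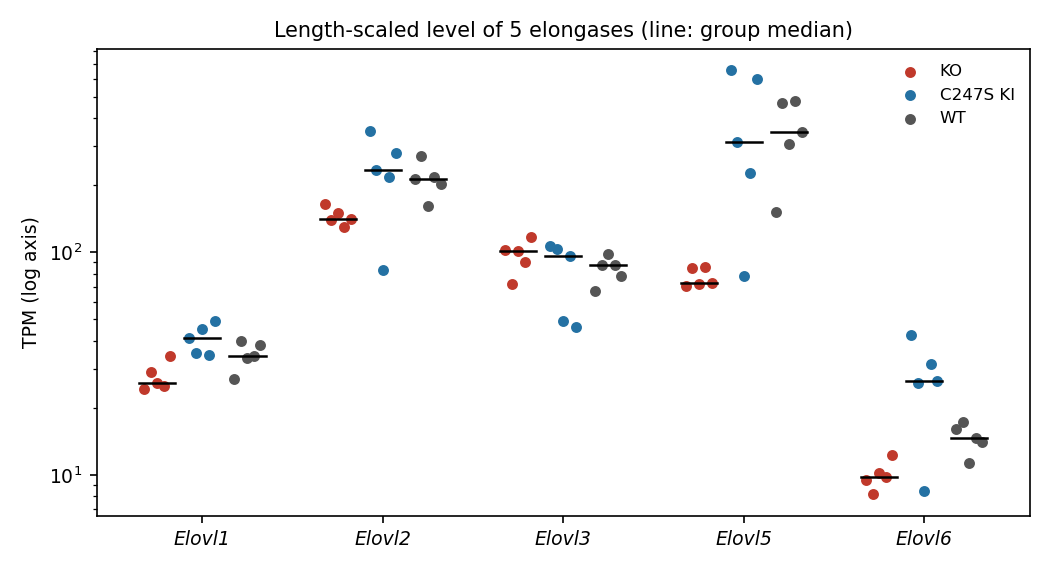
TPM on a log axis for 5 elongases, with 1 point per library and a line at the group median, for KO, C247S KI and WT (n = 5 each). Elovl5 lies at 70.7 to 86.1 TPM in KO libraries, against 151 to 479.7 TPM in WT libraries, while Elovl3 overlaps between all groups.

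Against WT, 1 of the 5 elongases passed the threshold in KO livers, Elovl5, which was lower. Across all genes 6.76% passed in that comparison and 4.19% passed as lower (edgeR quasi-likelihood test, Benjamini-Hochberg adjusted p below 0.05 over 13898 genes). In KO against C247S KI, 3 of the 5 were lower, Elovl5, Elovl6 and Elovl1, beside 10.3% of all genes called and 5.86% called lower. For C247S KI against WT none passed: the count was 0 of 5 with edgeR, 0 with DESeq2 and 0 with limma-voom, while 2 had an unadjusted p under 0.05 (Elovl6 and Elovl1). Of all genes 0.0863% were called in that comparison, 0.0648% as higher and 0.0216% as lower. The median log2 fold change of the 5 genes was -0.43 in KO against WT, 0.08 in C247S KI against WT and -0.51 in KO against C247S KI, where the median over all genes tested was -0.01, 0.00 and -0.03. The comparisons share libraries: KO enters 2 of them, and so does each other group.

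**Figure D2:**
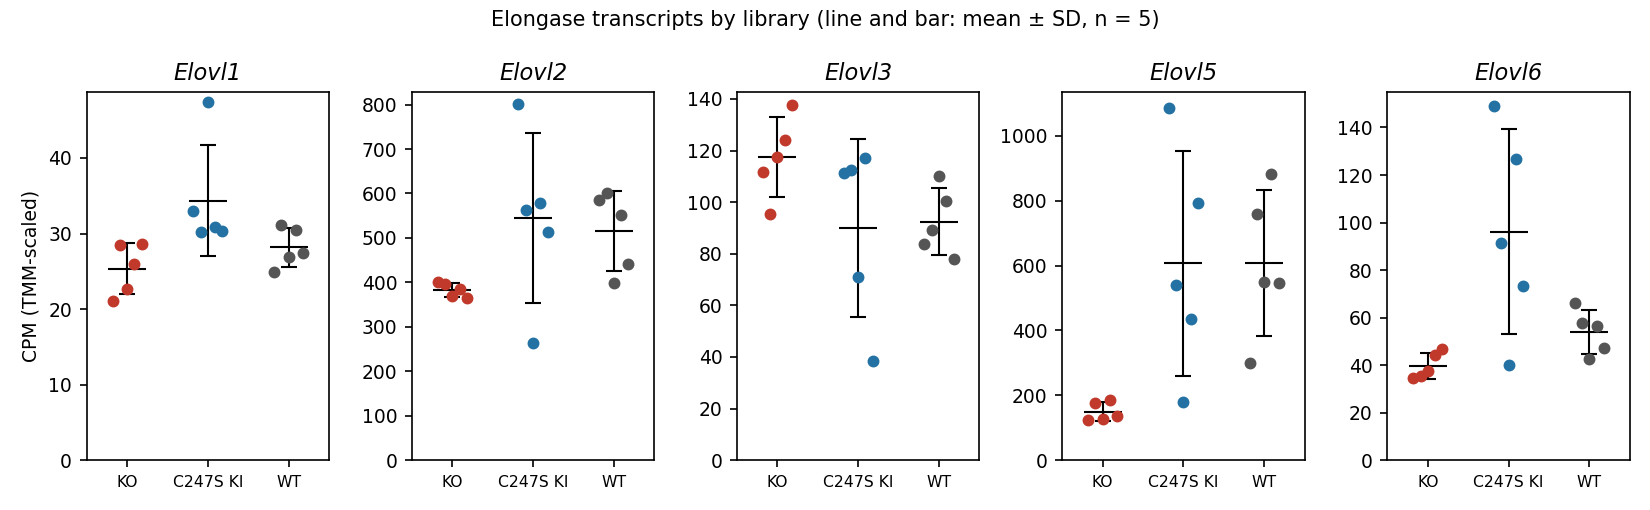
CPM (TMM-scaled, linear axis from 0) of each elongase in KO, C247S KI and WT libraries, with 1 point per library and the mean ± SD (n = 5 each). KO libraries span 364 to 400.3 CPM for Elovl2 and 124 to 185 CPM for Elovl5, and C247S KI libraries are spread from 180 to 1087 CPM for Elovl5.

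Elovl5 showed the largest difference among the 5 elongases. Its level was 124, 175, 128, 185 and 137 CPM in KO 1 to KO 5, 1087, 541, 180, 436 and 792 CPM in C247S KI 1 to C247S KI 5, and 298, 758, 549, 883 and 547 CPM in WT 1 to WT 5. All 5 KO libraries lay below all 5 WT libraries, and C247S KI 3 alone of the C247S KI libraries lay within the KO range. Across all genes, 9.61% had KO and WT libraries that did not overlap: in 5.09% KO was lower and in 4.51% KO was higher. The KO mean was 149.7 ± 28.2 CPM, against 607 ± 224 CPM in WT (SD, n = 5 each), and Elovl5 fell by 2.02 in log2 units (SE 0.37, edgeR adjusted p = 0.00408). Against C247S KI, with a mean of 607 ± 346 CPM, it also fell by 2.02 (SE 0.37, edgeR adjusted p = 0.00247). Both calls held in each of the 15 fits that left out 1 library, with log2 changes of -2.19 to -1.84 against WT and -2.26 to -1.69 against C247S KI. Between C247S KI and WT the log2 difference was -9.56e-05 (edgeR adjusted p = 0.9999), with a 95% interval of -0.74 to 0.74, so changes of that size in either direction are not excluded.

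Both Elovl5 calls were lost when either of 2 covariates entered the fit. With a clock index, set out below, the log2 change against WT was -2.01 (SE 0.58, edgeR adjusted p = 0.134) and against C247S KI it was -2.01 (SE 0.72, edgeR adjusted p = 0.306). With an index of male-biased liver genes, an alternative chosen after seeing the data, the log2 change was -0.59 against WT (SE 0.39, edgeR adjusted p = 0.549) and -0.95 against C247S KI (SE 0.31, edgeR adjusted p = 0.125). All KO libraries lay above all WT libraries on both indices. A fit with either index therefore cannot part it from the KO genotype. Txnip itself lost its call against WT with the clock index (-1.03, edgeR adjusted p = 0.248) and the male-biased index (-0.96, edgeR adjusted p = 0.348). Its call against C247S KI was also lost with the clock index (-0.78, edgeR adjusted p = 0.575) and the male-biased index (-0.83, edgeR adjusted p = 0.176).

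**Figure D3:**
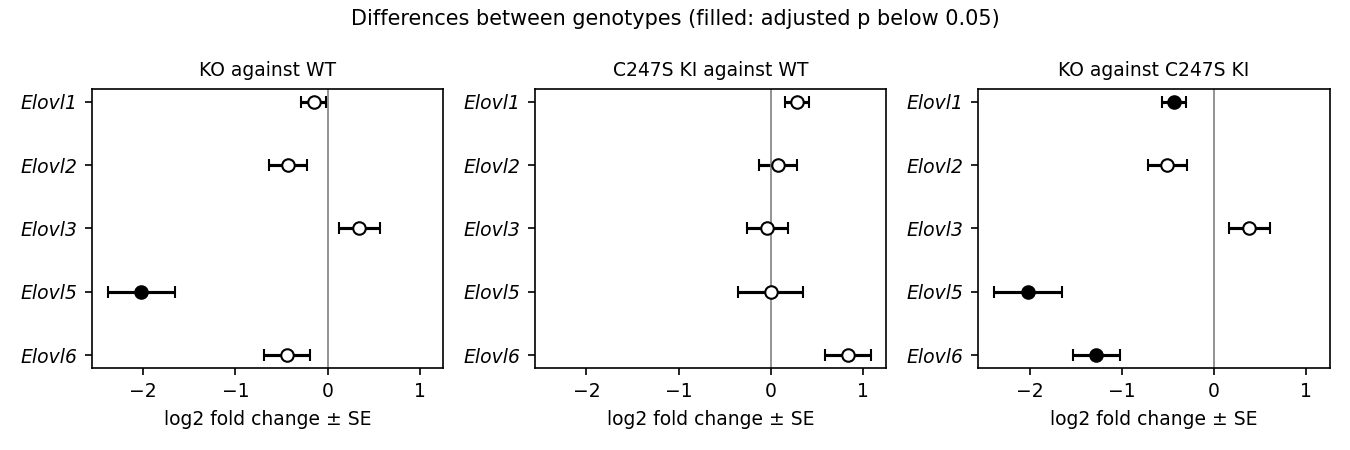
Log2 fold change with its SE for 5 elongases in KO against WT, C247S KI against WT and KO against C247S KI, from the edgeR fit of 15 libraries, filled where the adjusted p is below 0.05. Elovl5 lies at -2.02 in both KO comparisons and near 0 in C247S KI against WT, where Elovl6 lies at 0.83 without passing.

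Elovl6, the elongase that makes stearate from palmitate, was lower in KO than in C247S KI livers. It was at 34.4, 35.4, 37.7, 44.3 and 46.7 CPM in KO 1 to KO 5, 149 CPM in C247S KI 1 and 91.4, 40.2, 127 and 73.2 CPM in C247S KI 2 to C247S KI 5, and 66.2, 57.8, 42.4, 56.4 and 47.3 CPM in WT 1 to WT 5. Of the C247S KI libraries, 4 lay above every WT library, and C247S KI 3 lay below every WT library and within the KO range. Elovl6 fell by 1.28 in KO against C247S KI (SE 0.25, edgeR adjusted p = 0.00431), with means of 39.7 ± 5.49 CPM in KO and 96.1 ± 43.0 CPM in C247S KI (SD, n = 5 each). That call held without any 1 library, with log2 changes of -1.48 to -1.06. It was lost with the clock index (-1.01, edgeR adjusted p = 0.471) and with the male-biased index (-1.16, edgeR adjusted p = 0.0645).

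Elovl6 was compared between C247S KI and WT livers, and its log2 difference from WT was 0.83 (SE 0.25, 95% interval 0.31 to 1.36, edgeR adjusted p = 0.316), short of the threshold. C247S KI 3 decided this call: without it Elovl6 was at 1.04 (edgeR adjusted p = 0.0458), and with C247S KI 3, C247S KI 5 and WT 1 all left out it was at 1.27 (edgeR adjusted p = 0.00506). C247S KI 3 and C247S KI 5 were the C247S KI libraries with the lowest Elovl6, and WT 1 the WT library with the highest. Leaving them out therefore widens this difference and is no separate support for it. In KO against WT, where WT libraries averaged 54.0 ± 9.33 CPM, the difference was -0.44 (SE 0.25, 95% interval -0.97 to 0.08, edgeR adjusted p = 0.2998).

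Elovl2, which lengthens the longer polyunsaturated chains, had the highest KO level of the 5 genes per transcript length and hardly varied between KO libraries. It was at 400.3, 397, 370, 385 and 364 CPM in KO 1 to KO 5, 801, 563, 264, 579.5 and 514 CPM in C247S KI 1 to C247S KI 5, and 586, 601, 398, 553 and 442 CPM in WT 1 to WT 5. The coefficient of variation was 4.22% in KO, 35.2% in C247S KI and 17.5% in WT libraries. KO 1, at 400.3 CPM, lay just above WT 3, at 398 CPM, so the groups overlapped, and C247S KI 3 was the lowest of all 15 libraries. The log2 difference was -0.43 in KO against WT (SE 0.21, 95% interval -0.87 to 0.01, edgeR adjusted p = 0.227), -0.51 in KO against C247S KI (SE 0.21, 95% interval -0.95 to -0.07, edgeR adjusted p = 0.128) and 0.08 in C247S KI against WT (SE 0.21, 95% interval -0.36 to 0.52, edgeR adjusted p = 0.917). None of these passed over all genes. In a fit of only KO and WT, which does not share the spread of C247S KI, the KO difference passed (-0.42, edgeR adjusted p = 0.0472). Without C247S KI 3 the difference from C247S KI passed (-0.69, edgeR adjusted p = 0.00670).

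Elovl1, the elongase of saturated very-long-chain acyl groups, separated the KO and C247S KI livers by a small margin. It was at 21.02, 28.5, 22.7, 25.96 and 28.6 CPM in KO 1 to KO 5, 32.9, 30.2, 47.4, 30.9 and 30.3 CPM in C247S KI 1 to C247S KI 5, and 24.9, 31.2, 26.9, 30.4 and 27.4 CPM in WT 1 to WT 5. All KO libraries lay below all C247S KI libraries, a pattern without overlap seen in 9.66% of all genes, with KO lower in 4.94% and higher in 4.72%. Elovl1 fell by 0.44 in KO against C247S KI (SE 0.13, edgeR adjusted p = 0.0453). This call stood close to the threshold: it was kept in 2 of the 15 fits that left out 1 library, and without C247S KI 3, the highest library, the log2 change was -0.30 (edgeR adjusted p = 0.0688). It was also lost with limma-voom (adjusted p = 0.0510) and with RLE factors (edgeR adjusted p = 0.0505). The log2 difference was -0.15 in KO against WT (SE 0.13, 95% interval -0.43 to 0.13, edgeR adjusted p = 0.534) and 0.28 in C247S KI against WT (SE 0.13, 95% interval 0.00 to 0.56, edgeR adjusted p = 0.505).

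Elovl3, known for its high level in brown fat and for a daily rhythm and male bias in mouse liver, was the 1 elongase with a positive log2 difference in both KO comparisons. It was at 112, 95.6, 117, 124 and 138 CPM in KO 1 to KO 5, 111, 112, 71.0, 117 and 38.3 CPM in C247S KI 1 to C247S KI 5, and 83.9, 89.0, 110, 101 and 78.1 CPM in WT 1 to WT 5. The groups overlapped in every comparison, and the lowest library was C247S KI 5. The log2 difference was 0.35 in KO against WT (SE 0.23, 95% interval -0.13 to 0.82, edgeR adjusted p = 0.384), 0.38 in KO against C247S KI (SE 0.23, 95% interval -0.09 to 0.86, edgeR adjusted p = 0.285) and -0.04 in C247S KI against WT (SE 0.23, 95% interval -0.51 to 0.44, edgeR adjusted p = 0.966). None passed the threshold, and the intervals allow a rise of up to 0.86 on the log2 scale in KO.

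Single transcripts carried most of the counts for 3 of the 5 genes. On GRCm38, Elovl5 lies on chromosome 9 from 77917364 to 77984519 (ENSMUSG00000032349), and its transcript ENSMUST00000034904 held 99.7% to 100% of the gene's estimated counts in every library. Elovl6, on chromosome 3 from 129532355 to 129638495 (ENSMUSG00000041220), had 95.8% to 99.2% in ENSMUST00000071402. Elovl2, on chromosome 13 from 41182381 to 41220405 (ENSMUSG00000021364), had 90.3% to 98.96% in ENSMUST00000021793. The values of these 3 genes are therefore close to those of 1 protein-coding transcript each.

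Elovl3 and Elovl1 were divided among several transcripts. Elovl3, on chromosome 19 from 46131897 to 46135694 (ENSMUSG00000038754), has 2 protein-coding transcripts. ENSMUST00000237098 held 54.2% to 75.7% of its counts in KO, 54.1% to 64.99% in C247S KI and 54.6% to 61.5% in WT libraries, so the KO shares reached higher and overlapped the others. Elovl1, on chromosome 4 from 118428093 to 118432953 (ENSMUSG00000006390), has 7 transcripts in the table, 4 of them protein coding, led by ENSMUST00000167636 with 27.1% to 54.1% over all libraries. Its transcript ENSMUST00000067896 held 1.30% to 11.03% in KO, 6.75% to 11.4% in C247S KI and 8.32% to 12.1% in WT libraries, on 8 to 86 estimated counts. These shares are estimates from reads that fit several transcripts and were not tested.

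The other enzymes of the elongation cycle were followed in 6 genes. Of these, 1 was lower and 0 were higher in KO against WT, with a median log2 change of -0.07, beside 4.19% of all genes called lower. The same counts applied in KO against C247S KI, with a median of -0.20, beside 5.86% of all genes called lower. The gene was Hsd17b12, the ketoacyl-CoA reductase of the cycle, at 105 ± 14.7 CPM in KO, 146 ± 14.2 CPM in C247S KI and 148 ± 20.1 CPM in WT libraries (SD, n = 5 each). It fell by 0.49 against WT (SE 0.12, edgeR adjusted p = 0.0225) and by 0.47 against C247S KI (SE 0.12, edgeR adjusted p = 0.0200). The call against WT was lost without KO 1, KO 2, KO 3, KO 5, WT 2 or WT 4, with adjusted p of up to 0.0730 (edgeR), and the call against C247S KI without KO 2, KO 3, KO 5 or C247S KI 1. With the male-biased index Hsd17b12 was at -0.24 against WT and -0.31 against C247S KI (edgeR adjusted p = 0.591 and 0.301). With the clock index both calls were lost as well (edgeR adjusted p = 0.352 and 0.607). The dehydratases Hacd1 to Hacd4 and the enoyl reductase Tecr did not pass, with log2 differences of -0.45 (Hacd2) to 0.05 (Tecr) in KO against WT. Of the 6 genes, 0 passed for C247S KI against WT with edgeR.

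Of the desaturases that work beside the elongases, Scd1 fell in both KO comparisons, and Fads1 and Fads2 passed in KO against C247S KI. Fads1 averaged 452 ± 72.8 CPM in KO, 915 ± 292 CPM in C247S KI and 670.4 ± 138 CPM in WT libraries, and fell by 1.02 in KO against C247S KI (SE 0.21, edgeR adjusted p = 0.00532). Fads2 averaged 734 ± 131 CPM in KO, 1415 ± 529 CPM in C247S KI and 1164 ± 309 CPM in WT libraries, and fell by 0.95 in KO against C247S KI (SE 0.26, edgeR adjusted p = 0.0265), a call lost without KO 2, KO 3, KO 5, C247S KI 1 or C247S KI 5. With the male-biased index, Fads1 was at -0.65 and Fads2 at -0.37 in that comparison (edgeR adjusted p = 0.145 and 0.521), and with the clock index both calls were lost as well (edgeR adjusted p = 0.473 and 0.645). Whether the 2 KO comparisons differ in these genes was not tested. In KO against WT, Fads1 was at -0.57 (edgeR adjusted p = 0.102) and Fads2 at -0.67 (edgeR adjusted p = 0.122). Scd1, which desaturates the stearate that ELOVL6 makes, fell by 3.82 in KO against WT (SE 0.46) and by 4.66 in KO against C247S KI (SE 0.48), with edgeR adjusted p of 0.000333 and 5.88e-05. Both Scd1 calls were kept with either index and in each of the 15 fits that left out 1 library. Of 6 desaturase genes, 1 was lower in KO against WT, 3 were lower in KO against C247S KI and 0 passed in C247S KI against WT with edgeR, and none was higher in any comparison. Of all genes, 4.19% were lower in KO against WT and 5.86% in KO against C247S KI.

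Genes listed around the supply of palmitate and malonyl-CoA were lower in KO for some members in each KO comparison. Fasn, fatty acid synthase, averaged 115 ± 21.4 CPM in KO, 366 ± 184 CPM in C247S KI and 264 ± 81.5 CPM in WT libraries. Of 8 such genes, 3 were lower in KO against WT (Acacb, Fasn and Me1) and 6 were lower and 1 higher in KO against C247S KI, with median log2 changes of -0.60 and -1.32. Across all genes, 4.19% were lower in the first comparison, and 5.86% were lower and 4.41% higher in the second. Acacb, an acetyl-CoA carboxylase, fell by 1.92 in KO against WT (SE 0.31, edgeR adjusted p = 0.00219) and by 2.79 in KO against C247S KI (SE 0.32, edgeR adjusted p = 8.87e-05). Acaca, the other acetyl-CoA carboxylase gene, was called lower against C247S KI but not against WT. Me1, the malic enzyme that yields NADPH, fell by 1.56 in KO against WT (SE 0.38, edgeR adjusted p = 0.0196), a call lost without KO 2 or WT 2 (edgeR adjusted p = 0.0523 and 0.0508). Mcat, the mitochondrial malonyl transferase, was the gene that rose in KO against C247S KI, by 0.54 (SE 0.15, edgeR adjusted p = 0.0328), with 30.3 ± 2.71 CPM in KO and 20.9 ± 5.62 CPM in C247S KI libraries. With the male-biased index the log2 changes against WT were -0.17 for Me1, -0.83 for Acacb and -0.67 for Fasn, and none of the 3 passed (edgeR adjusted p = 0.902, 0.392 and 0.506). With the clock index these 3 calls were also lost (edgeR adjusted p = 0.248, 0.134 and 0.0753). Acss2, which makes acetyl-CoA from acetate, fell by 1.64 in KO against C247S KI (SE 0.27, edgeR adjusted p = 0.00154), and was at -0.92 with the male-biased index (edgeR adjusted p = 0.0673). Its call was also lost with the clock index (-1.93, edgeR adjusted p = 0.159). For C247S KI against WT, 0 of these 8 genes passed with edgeR, although 7 had a positive log2 difference and the median was 0.40.

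**Figure D4:**
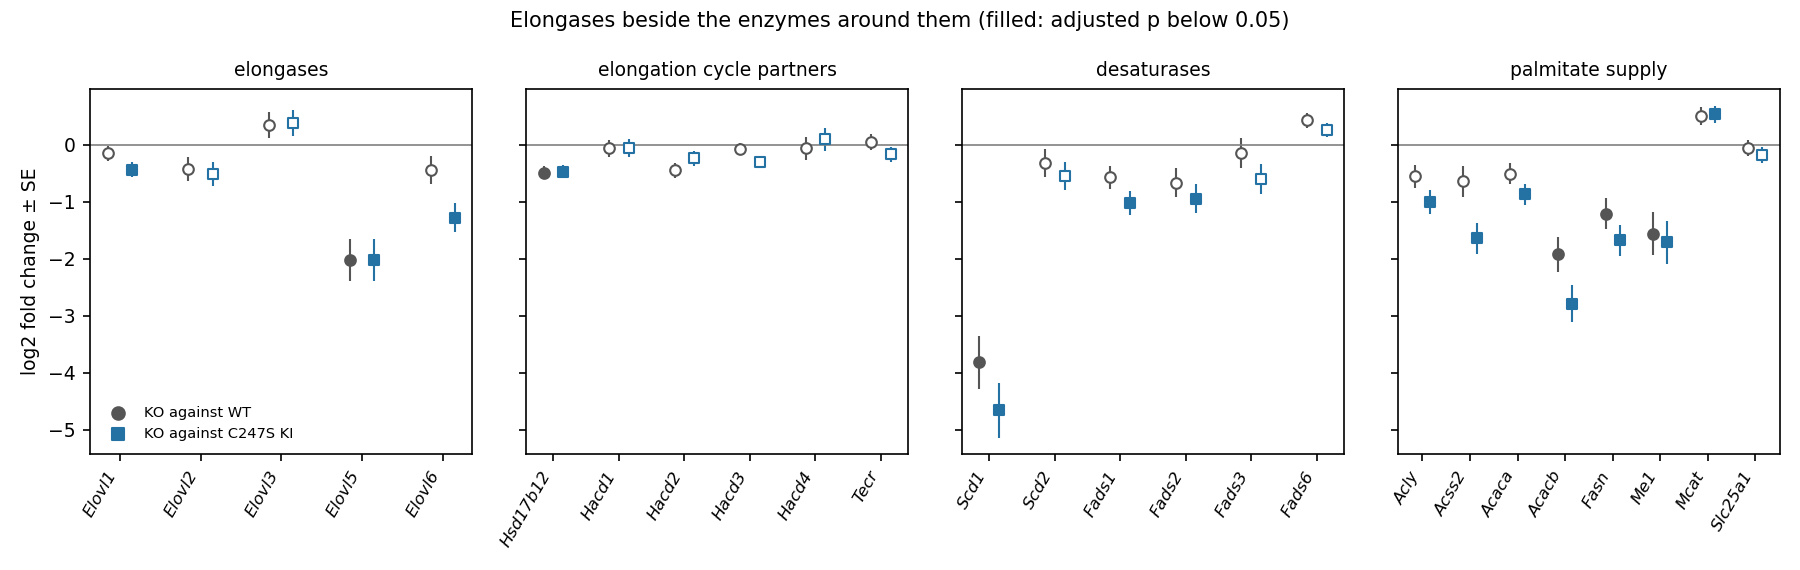
Log2 fold change with its SE in KO against C247S KI (squares) and KO against WT (circles) for the elongases, their cycle partners, the desaturases and the genes listed around palmitate supply, filled where the edgeR adjusted p is below 0.05. Scd1 has the lowest values, at -4.66 and -3.82, and of the cycle partners Hsd17b12 is the 1 filled gene.

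Among regulators of these enzymes, the transcript of Srebf1, the sterol-responsive factor of lipogenesis, had log2 differences of -0.62 in KO against WT (edgeR adjusted p = 0.105), -0.71 in C247S KI against WT (edgeR adjusted p = 0.330) and 0.09 in KO against C247S KI (edgeR adjusted p = 0.821). Of 13 regulators, 2 were lower and 1 higher in KO against WT, and 1 lower and 1 higher in KO against C247S KI. Across all genes 4.19% were lower and 2.56% higher in the first comparison, and 5.86% and 4.41% in the second. Counts this small do not set the regulators apart from those shares. Insig2, which holds SREBP precursors in the endoplasmic reticulum, fell by 1.89 in KO against WT (SE 0.22, edgeR adjusted p = 0.000238) and by 1.59 in KO against C247S KI (SE 0.22, edgeR adjusted p = 0.000296). With the male-biased index it was at -1.18 against WT (edgeR adjusted p = 0.0856), and with the clock index at -0.72 against C247S KI (edgeR adjusted p = 0.415). Nr1h2, which encodes LXR beta, rose by 0.38 in KO against WT (SE 0.09, edgeR adjusted p = 0.0162) and by 0.35 in KO against C247S KI (SE 0.09, edgeR adjusted p = 0.0189), without the first call when KO 5 or WT 4 was left out and without the second when KO 5 was. Both Nr1h2 calls were also lost with either index. Thrsp, a lipogenic cofactor, fell by 0.98 in KO against WT (SE 0.28, edgeR adjusted p = 0.0473), a call lost in 10 of the 15 fits that left out 1 library. The Thrsp call was also lost with either index.

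Of 5 clock genes high with Dbp, 2 rose in KO against WT (Dbp and Ciart) and 4 rose in KO against C247S KI, and of 3 tested genes high with Arntl, 0 passed in KO against WT and 3 fell in KO against C247S KI (edgeR). Across all genes 2.56% were higher and 4.19% lower in KO against WT, and 4.41% and 5.86% in KO against C247S KI. The clock index, the mean log2 CPM of Dbp, Nr1d1, Ciart, Per3 and Tef less that of Arntl, Clock and Cry1, was 3.19 to 4.07 in KO, 0.79 to 2.45 in C247S KI and 1.84 to 3.08 in WT libraries, so all KO libraries lay above the other 10. Dbp, a clock output factor, rose by 1.09 in KO against WT (SE 0.24, edgeR adjusted p = 0.0123). Elovl3, the elongase known for its rhythm, was at 0.35 there without passing (edgeR adjusted p = 0.384). A link between the clock genes and the elongases was not tested. Because the index nearly follows the genotype, a fit with it cannot part the 2, and the sources used here give no collection time.

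In C247S KI and in WT, the 1 library with the highest summed level of male-biased liver genes had the lowest Elovl5, which did not hold in KO. The summed level of 9 such genes was 9225 to 15630 CPM in KO, 4608 to 23994 CPM in C247S KI and 4597 to 18451 CPM in WT libraries. Of these, 4 rose and 0 fell in KO against WT, and 2 rose and 0 fell in KO against C247S KI (edgeR), beside 2.56% and 4.41% of all genes called higher. Serpina1e and Mup20 made up most of the sum in every library and were not among the genes called. They were at 13976 and 8547 CPM in C247S KI 3, and at 5495 and 11735 CPM in WT 1. C247S KI 3 and WT 1 had the highest sums of their groups and also their lowest Elovl5, at 180 and 298 CPM. C247S KI 1 and C247S KI 5, with sums of 6215 and 4608 CPM, had 1087 and 792 CPM of Elovl5. C247S KI 2 and C247S KI 4 lay between, with sums of 13695 and 14439 CPM and Elovl5 at 541 and 436 CPM. Their sums lay within the KO range, while their Elovl5 lay above every KO library. KO 1 had the lowest KO sum, 9225 CPM, and the lowest Elovl5, 124 CPM. KO 2 had the highest KO sum, 15630 CPM, with 175 CPM of Elovl5. The 4 WT libraries with sums of 4597 to 5999 CPM had 547 to 883 CPM of Elovl5. Among these 4 there was no inverse order: WT 3, with the lowest sum, had 549 CPM, and WT 5, with 5999 CPM, had 547 CPM. In WT the pattern therefore rests on WT 1 alone. The male-biased index, a mean of log2 CPM, was 8.02 to 8.65 in KO, 5.98 to 8.24 in C247S KI and 5.78 to 7.66 in WT libraries, and C247S KI 3 alone of the other 10 lay within the KO range. This index also nearly follows the KO genotype, so a fit with it cannot part the 2. Several of the male-biased genes, such as Cyp4a12a and Cyp4a12b, have near-identical copies, so their single counts are uncertain. Of 6 tested female-biased genes, 5 were lower in KO against WT, beside 4.19% of all genes. The female-biased list summed to 24.2 to 87.6 CPM in KO, 63.5 to 262 CPM in C247S KI and 110 to 338 CPM in WT libraries.

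**Figure D5:**
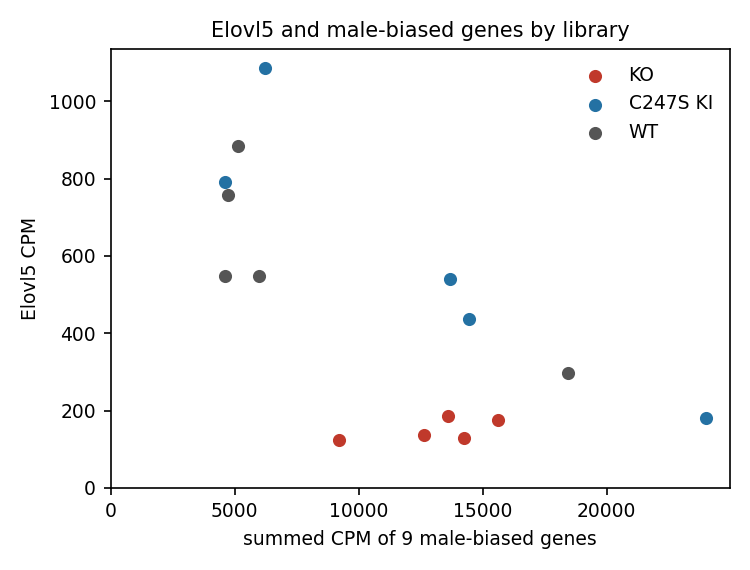
Elovl5 CPM against the summed CPM of 9 male-biased liver genes, with 1 point per library (5 KO, 5 C247S KI, 5 WT). Serpina1e and Mup20 make up most of each sum. C247S KI 3 and WT 1 have the highest sums of their groups, 23994 and 18451 CPM, and the lowest Elovl5, 180 and 298 CPM.

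Markers of other cell types were followed in the same fit. Of all genes in it, 4.19% were lower in KO against WT and 5.86% in KO against C247S KI. Fat cell markers were at or near 0: Adipoq, Lep, Ucp1, Plin1 and Retn had at most 7 estimated counts in any library, and the summed level of 8 adipocyte markers was 8.92 to 13.2 CPM in KO, 32.8 to 68.2 CPM in C247S KI and 27.7 to 57.8 CPM in WT libraries, carried by Cidea, Fabp4 and Cfd, which all fell in both KO comparisons. Cidea is known to rise in fatty liver as well as in fat. Of 10 Kupffer cell and macrophage markers, 2 were lower in KO against WT, and their sum was 87.4 to 324 CPM in KO, 67.8 to 176 CPM in C247S KI and 136 to 368 CPM in WT libraries. Cholangiocyte markers summed to 36.7 to 52.6 CPM in KO, 62.7 to 142 CPM in C247S KI and 47.5 to 64.0 CPM in WT libraries, and 2 of 6 tested, Sox9 and Spp1, were lower in KO against C247S KI. Endothelial, stellate, and T and B cell markers had 2 of 8, 1 of 8 and 1 of 5 tested genes lower in KO against WT. The part of these cells in the elongase levels was not tested.

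The genes most like each elongase were found by Pearson's r of log2 CPM over the 15 libraries, among 9039 genes with a mean of at least 5 CPM. Because the libraries share genotype and depth, r is given without a test. For Elovl5 they were Me1 (r = 0.97), the peroxisomal transporter gene Abcd2 (r = 0.95) and Apoa4 (r = 0.94). Taken as deviations from the group means, Me1 stayed near, at r = 0.96, behind Cyp2c38 at r = 0.97 and before Rdh16 at r = 0.94. Abcd2 itself averaged 6.002 ± 0.440 CPM in KO, 22.2 ± 12.5 CPM in C247S KI and 21.97 ± 4.58 CPM in WT libraries, and fell by 1.87 in KO against WT (SE 0.32, edgeR adjusted p = 0.00287), with -0.998 under the male-biased index (edgeR adjusted p = 0.303). That call was also lost with the clock index (-1.88, edgeR adjusted p = 0.0916).

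For Elovl2 the most like genes were Pdk1, a pyruvate dehydrogenase kinase (r = 0.95), Heca (r = 0.92) and Bche, butyrylcholinesterase (r = 0.91), and within groups Pdk1 (r = 0.94), Abcd2 (r = 0.93) and Heca (r = 0.92). For Elovl6 they were Cpt1a, the carnitine palmitoyltransferase of fatty acid oxidation (r = 0.90), Etv6 (r = 0.90) and Ugt1a5 (r = 0.89), and within groups Nadk, an NAD kinase (r = 0.92), Copb1 (r = 0.90) and Cpt1a (r = 0.88). For Elovl3 they were Stard7, a lipid transfer protein (r = 0.92), Cnot11 (r = 0.89) and Aldh7a1 (r = 0.86), and within groups Stard7 (r = 0.92), Sardh (r = 0.89) and Cnot11 (r = 0.87). For Elovl1 they included Cp, ceruloplasmin (r = 0.88), and Arpc1b (r = 0.88), and within groups Flot2 (r = 0.92), Borcs8 (r = 0.90) and Nans (r = 0.90).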

How the data were processed

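The authors deposited whole-number estimated counts for each transcript. The submitters' processing notes name Trimmomatic 0.39, kallisto 0.50.1, DESeq2 and mm10, and the sources used here do not give the transcript set. kallisto shares out reads that match more than 1 transcript. Transcripts were matched to GENCODE M21 (GRCm38) without version, 114280 of 115911 (98.6%). The 1631 others held 0.373% to 0.480% of a library's counts and were left out. Counts were summed per symbol. filterByExpr by group (minimum count 10, minimum total 15) left 13898 genes. All 15 libraries entered 1 fit of group means (edgeR 4.0.16 under R 4.3.3, using TMM factors, glmQLFit and glmQLFTest). A gene was called at a Benjamini-Hochberg adjusted p below 0.05. A log2 fold change's SE is its size over the root of F. Log2 CPM used a prior count of 2. Alternatives used DESeq2 1.42.0 and limma 3.58.1. The test was tried on simulated counts with known changes. No 2 libraries of a group were copies: over 30 pairs, chi-square divided by its degrees of freedom was 22.8 to 369. Figures used matplotlib 3.10.9.

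The elongases, the gene lists, the rule for naming genes and the libraries said to stand apart were chosen with earlier results of these data known. The rule named the 5 elongases, up to 3 called genes of each list with the lowest p (values only for others in the cycle partner, desaturase and palmitate supply lists), and the 3 most similar genes of each elongase, leaving out predicted gene models. Srebf1, Cidea, Fabp4, Cfd, Sox9 and Spp1 were named after their values were seen. Some genes that the rule named are not reported here.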

Additional observations from a re-analysis of the deposited data

Results flagged for a closer look

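In C247S KI livers, Elovl1 had 1 library far from the others. C247S KI 3 was at 47.4 CPM and the next, C247S KI 1, at 32.9 CPM, a gap of 0.841 of the group's range, above the critical value of 0.71 for 5 samples. It was the 1 flag in 15 elongase and group combinations, where chance flags about 1 in 20. The same library had the lowest C247S KI level of Elovl2 (264 CPM), Elovl5 (180 CPM) and Elovl6 (40.2 CPM).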

How the results depend on the processing

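Of the 12 alternatives and 15 fits without 1 library, only the 2 covariates ended the Elovl5 calls. The cause was not tested. In KO against WT, the clock index gave 69 called genes and 0 elongases (Elovl5 -2.01), and the male-biased index, added later, 36 genes and 0 elongases (Elovl5 -0.59). In KO against C247S KI they gave 66 and 362 genes and 0 elongases each, with Elovl5 at -2.01 and -0.95, Elovl6 at -1.01 and -1.16, and Elovl1 at -0.74 and -0.53. Elovl1 there also lost its call with limma-voom (-0.42), RLE factors (-0.43), no count filter (-0.43), only the 2 groups (-0.44) and with C247S KI 3, C247S KI 5 and WT 1 left out (-0.31), and lay at -0.48 to -0.30 without 1 library. Only the 2 groups gave 2 called elongases in KO against WT (Elovl2 -0.42). With C247S KI 3, C247S KI 5 and WT 1 left out, KO against WT had 1543 called genes, C247S KI against WT had 1 called elongase (Elovl6, 1.27), Elovl2 passed in KO against C247S KI (-0.76), and Elovl3 turned to 0.27 in C247S KI against WT.

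Elovl5 in C247S KI against WT changed sign around 0: 0.00930 with a mean count of at least 50, 0.000413 with only the 2 groups, 0.0210 with protein-coding transcripts, 0.0116 without the 3 libraries, 0.37 with the male-biased index, and -0.32 to 0.24 without 1 library. Without 1 library, C247S KI against WT ranged from -0.10 to 0.26 for Elovl2, -0.15 to 0.16 for Elovl3 and 0.63 to 1.04 for Elovl6, with 0 to 1 elongases called, and KO against C247S KI from -0.69 to -0.32 for Elovl2 with 2 to 3 called. Genes called without 1 library numbered 521 to 1258 in KO against WT (939 with all), 4 to 24 in C247S KI against WT (12) and 784 to 2274 in KO against C247S KI (1428). DESeq2 called 1493 genes in KO against WT and 67 in C247S KI against WT, where no filter gave 19, only the 2 groups 6, the clock index 30 and the male-biased index 29. Cry1 turned to 0.25 in KO against C247S KI with the clock index, of which it is part. Of 36 named list genes and Txnip by comparison, 30 lost their call with the clock index, 28 with the male-biased index, 12 without at least 1 library and 4 with at least 1 other alternative. Those lost with the clock index include Dbp, Ciart, Tef, Arntl and Clock, which are parts of that index. Their loss was built in and tells nothing about other genes.

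Replicate numbers did not pair the libraries (r of same-numbered deviations -0.14 to 0.38, and 3 of 15 matched best to their own number). With the replicate block, 6 genes were called in C247S KI against WT and Elovl1 was at -0.43 in KO against C247S KI without its call (edgeR adjusted p = 0.0568).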

Other observations

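Elovl4 and Elovl7, the other elongases of the family, were hardly measured in these livers. Elovl4 had at most 3 estimated counts in any library and was not tested. Elovl7 averaged 0.450 ± 0.144 CPM in KO, 0.748 ± 0.422 CPM in C247S KI and 0.726 ± 0.241 CPM in WT libraries (SD, n = 5 each), with log2 differences of -0.68 in KO against WT (edgeR adjusted p = 0.342) and -0.74 in KO against C247S KI (edgeR adjusted p = 0.256).

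Acyl-CoA synthetases, which activate the fatty acids that elongases extend, were lower in KO for 3 of 8 tested genes in both KO comparisons, with none higher. Of all genes, 4.19% were lower in KO against WT and 5.86% in KO against C247S KI. The 3 synthetase genes were Acsl3, Acsl4 and Acsl5. Acsl5 averaged 181 ± 19.3 CPM in KO, 338 ± 82.4 CPM in C247S KI and 309 ± 43.6 CPM in WT libraries, and fell by 0.77 in KO against WT (SE 0.15, edgeR adjusted p = 0.00739), a call lost with the male-biased index (-0.39, edgeR adjusted p = 0.472) and with the clock index (edgeR adjusted p = 0.174). The call of Acsl4 in KO against WT (-0.72, edgeR adjusted p = 0.0273) was lost without KO 2, KO 3, KO 4, KO 5, WT 1, WT 2 or WT 4, and with either index. Genes that shorten very long chains in peroxisomes had 1 of 9 lower in KO against WT, Abcd2, which also fell in KO against C247S KI (-1.89, edgeR adjusted p = 0.00154). Both Abcd2 calls were lost with either index. Of 8 genes that place long acyl chains in phospholipids and sphingolipids, among them Lpcat3 and the ceramide synthases, 0 passed in any comparison with edgeR, with a median log2 change of -0.23 in KO against WT.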
